A study of Sus scrofa with 6 samples.

Results

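The MiT/TFE transcription factors and a set of autophagy genes were examined in abdominal aorta RNA from Wuzhishan miniature pigs. The set held 10 genes, listed by symbol: the factors TFEB, TFE3, MITF and TFEC, the lysosomal channel MCOLN1, the autophagy receptor SQSTM1, the ATG8 proteins MAP1LC3B and GABARAPL1, and the machinery genes ATG7 and BECN1. Of the 30477 genes in the deposited table, 9 members were found by gene name, and BECN1 was found by its gene ID because its row carries no symbol.

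The 3 pigs of the NC group were fed normal chow and the 3 pigs of the HFCF group a chow enriched in fat, cholesterol and fructose, both for 6 months. All were males of the same breed, with an age of 3 to 4 months in the sample labels and an older one in the methods. Each pig gave 1 mRNA library from total RNA of the abdominal aorta, a tissue of mixed cells in which smooth muscle prevails. Values are FPKM, fragments scaled to the exon length of the gene and to the mapped reads of the library, so that levels are per length and can be compared between genes.

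MiT/TFE factors are basic helix-loop-helix leucine zipper proteins that bind short E-box and CLEAR elements in the promoters of lysosomal and autophagy genes. When mTORC1 is active on the lysosome surface, it phosphorylates them and keeps them in the cytoplasm. When it is inactive, or when calcium released through the channel MCOLN1 activates calcineurin, they enter the nucleus, so that much of their control lies outside transcript levels. In autophagy, a membrane that grows around cargo is decorated with lipid-bound ATG8 proteins, which dock receptors such as SQSTM1, and the closed vesicle fuses with a lysosome. In atherosclerotic plaque this pathway is known for its part in the handling of lipid by macrophages.

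The diets were compared on the scale log2(FPKM + 0.1) with limma, in the 15384 genes whose mean was 0.1 FPKM or more, with Benjamini-Hochberg adjustment over all of them. A gene was called at an adjusted p under 0.05. Differences are HFCF minus NC with their standard error (SE), and this scale understates the change of low genes. Of the tested genes 28.9% were called, 22.8% as higher and 6.16% as lower in the HFCF group. The median difference over these genes was 0.32 on the log2 scale, so a gene with no difference in FPKM lay below most others. With other scalings that median was 0.00 (median-ratio), -0.07 (quantile) and 0.09 (TPM).

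Before the members, the libraries themselves differed between the groups. FPKM values summed to between 272207 and 287141 in the NC pigs and to between 330222 and 338690 in the HFCF pigs. Depth in reads is not given; the steps between low FPKM values gave depths of 1.09 and 1.37 times that of the first NC pig in the other NC pigs and of 1.02 to 1.07 times it in the HFCF pigs. A mitochondrial ribosomal RNA gene (ENSSSCG00000018061) was at 0.295 to 0.686 FPKM in the NC pigs and at 140.7 to 205.7 FPKM in the HFCF pigs. All mitochondrial ribosomal RNA genes summed to 113.1 to 373.2 FPKM in the NC pigs and 250.8 to 336.1 FPKM in the HFCF pigs, with overlap. Mitochondrial transfer RNA genes summed to 103.4 to 253.3 FPKM and 437.1 to 769.3 FPKM, without overlap. The part of such differences between the libraries in the results was not tested. Contractile smooth muscle markers summed to between 15145 and 21336 FPKM in the NC pigs and to between 7659.5 and 12401 FPKM in the HFCF pigs, the highest sum of the 8 marker lists in each pig, with 4 of 6 genes called lower. Macrophage markers summed to between 64.4 and 78.2 FPKM in the NC pigs and to between 906.4 and 2304 FPKM in the HFCF pigs, with 13 of 13 tested called higher and LYZ listed at 0 in all pigs.

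Of the 10 members, 4 were called: MITF and TFEC were higher and MCOLN1 and ATG7 lower in the HFCF group. This was 40.0% of the members beside 28.9% of all tested genes. The members were chosen with earlier results of these data known, so this share is not independent evidence. Among the called members TFEC passed the filter of 0.1 FPKM only through the HFCF pigs. The groups did not overlap in 6 members, 3 higher and 3 lower, beside 48.2% of all tested genes (36.1% higher and 12.1% lower). The study called a gene when the group means differed by more than 2-fold with an unadjusted p under 0.05. That rule was applied here with the unadjusted p of limma, so these calls are not those of the study. Of all tested genes 25.5% met it in this form (20.7% higher and 4.82% lower). So did 3 members, MITF and TFEC as higher and MCOLN1 as lower. The median difference of the 10 members was 0.02, beside 0.32 for all tested genes.

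**Figure D1:**
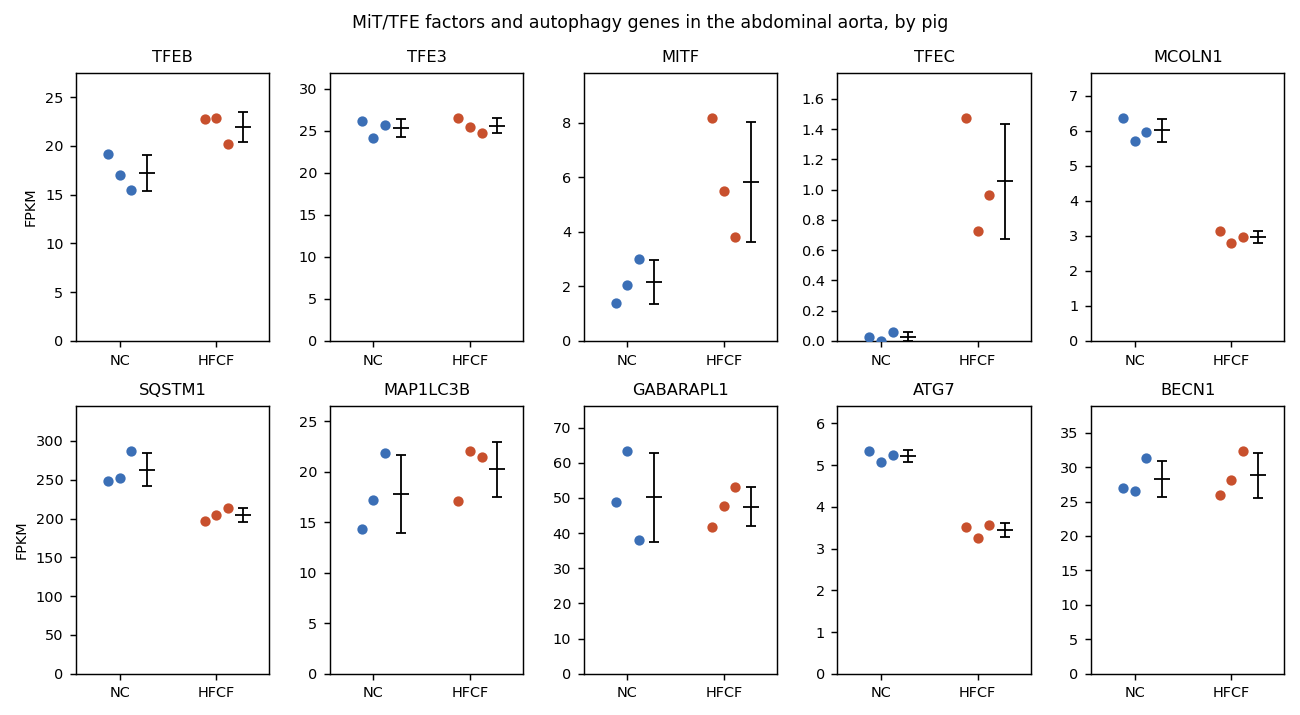
FPKM of the 10 members in each pig (points; NC blue, HFCF red), with the mean and SD of 3 pigs as black bars on linear axes that start at 0. TFEB, MITF and TFEC lie higher, and MCOLN1, SQSTM1 and ATG7 lower, in the 3 HFCF pigs than in all NC pigs. TFE3, MAP1LC3B, GABARAPL1 and BECN1 overlap.

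TFEB and TFE3, the widely expressed factors that drive lysosomal genes, made up most of the family's RNA in both groups. TFEB (ENSSSCG00000001621) was at 19.2, 17.0 and 15.5 FPKM in the NC pigs and at 22.7, 22.9 and 20.2 FPKM in the HFCF pigs. Each HFCF pig was above each NC pig, by a small margin. The log2 fold change was 0.35 (SE 0.14, 95% interval 0.01 to 0.69, adjusted p = 0.110, limma), 0.03 above the median of all genes, and it was -0.0061 after median-ratio scaling.

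TFE3 (ENSSSCG00000012287) was at 26.2, 24.1 and 25.7 FPKM in the NC pigs and at 26.6, 25.5 and 24.8 FPKM in the HFCF pigs. The groups overlapped, and all 6 pigs lay between 24.1 and 26.6 FPKM. The log2 fold change was 0.02, with a 95% interval from -0.27 to 0.31 (adjusted p = 0.933, limma), and it turned negative with each of the scalings, to between -0.34 and -0.12.

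MITF, the factor of melanocytes, osteoclasts and other lineages, rose. MITF (ENSSSCG00000011514) was at 1.41, 2.04 and 3.02 FPKM in the NC pigs and at 8.18, 5.51 and 3.81 FPKM in the HFCF pigs. The groups did not overlap, but the highest NC pig and the lowest HFCF pig were close, and within each group the highest pig was more than 2 times the lowest. The ratio of group means was 2.71, and the log2 fold change was 1.39 (SE 0.37, adjusted p = 0.0296, limma). The call was lost after median-ratio scaling (log2 fold change 1.05, adjusted p = 0.0650, limma), with quantile values (0.92, adjusted p = 0.0918) and in TPM (1.17, adjusted p = 0.0605). It was also lost without the first or second NC pig (1.13 and 1.38) and without the first or second HFCF pig (1.12 and 1.40). The adjusted p was then 0.0771 to 0.0977 in limma.

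TFEC, a family member found mainly in macrophages and other myeloid cells, rose from close to 0. TFEC (ENSSSCG00000038138) was at 0.026 FPKM, listed at 0 and at 0.058 FPKM in the 3 NC pigs, and at 1.47, 0.730 and 0.963 FPKM in the HFCF pigs. The lowest HFCF pig was far above the highest NC pig. On the log2(FPKM + 0.1) scale the difference was 3.15 (SE 0.39, adjusted p = 0.00257, limma). TFEC passed the filter of 0.1 FPKM only through the HFCF pigs, because its mean in the NC pigs was 0.028 FPKM. It was called in all 14 alternatives that tested it, among them the fit without that filter. The size followed the pseudocount, from 0.98 with 1 FPKM added to 5.14 with 0.01 FPKM added. Even so TFEC remained the least abundant member in both groups.

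The makeup of the family was also compared as shares within each pig, which a scaling factor of that pig does not move. MITF made up 3.00%, 4.72% and 6.82% of the summed FPKM of the 4 factors in the NC pigs and 13.9%, 10.1% and 7.65% in those of the HFCF group. TFEC made up 0.0557%, 0% and 0.131% in the NC pigs and 2.503%, 1.34% and 1.94% in those of the HFCF group. Both shares were higher in all HFCF pigs, by 5.69 and 1.86 percentage points, and each exact two-sided permutation p was 0.1, the smallest that 3 pigs against 3 allow. The share of TFE3 was lower, 56.6% ± 1.196 against 47.2% ± 2.41 (SD, n = 3 each, exact permutation p = 0.1), and that of TFEB was 38.5% ± 3.07 against 40.3% ± 1.69 (SD, n = 3 each, exact permutation p = 0.5). The sum of the 4 factors was 44.8 ± 1.88 FPKM with normal chow and 54.4 ± 4.58 FPKM with the HFCF diet (SD, n = 3 each).

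**Figure D2:**
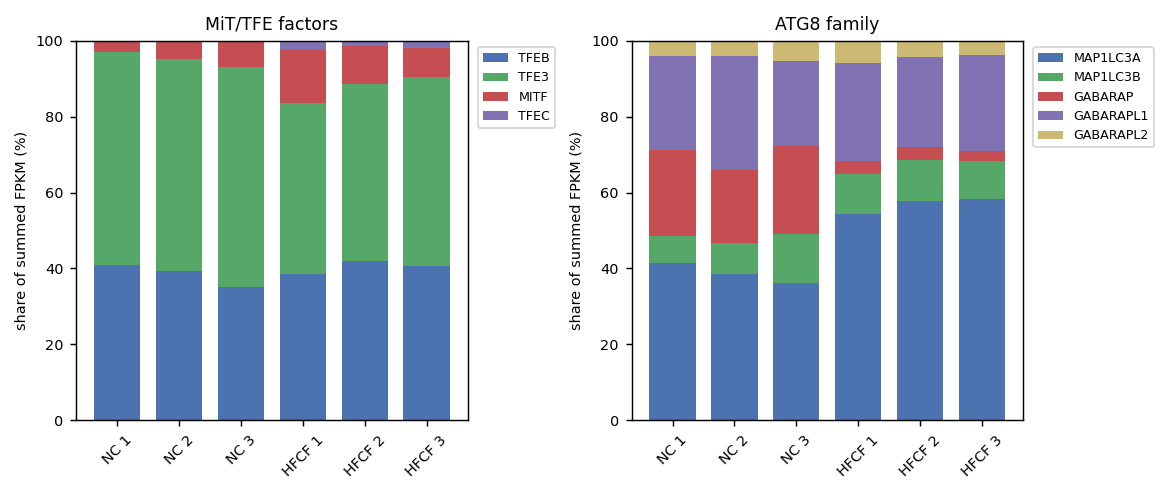
Share of the summed FPKM (%) held by each of the 4 MiT/TFE factors (left) and by each ATG8 gene above 0 (right) in each pig, as stacked bars of the whole. MITF and TFEC hold more in every HFCF pig, and on the right GABARAP holds 19.3% or more in the NC pigs and 3.33% or less in the HFCF pigs.

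The rises of MITF and TFEC stood beside that of the macrophage markers, and in bulk tissue more cells of a type and more RNA per cell cannot be told apart. The first HFCF pig was highest for MITF, for TFEC and for the summed macrophage markers, which were at 2304, 979.7 and 906.4 FPKM in the 3 HFCF pigs. The part of the markers in the rise of either factor was not tested. Over the 6 pigs, the genes whose centred log2 values lay nearest to those of TFEC, among 10100 genes with a symbol and a mean of at least 1 FPKM, were PHKA1, NLRP3 and TAGAP, at Euclidean distances of 0.385, 0.433 and 0.487. PHKA1, a phosphorylase kinase subunit, was at 0.208 FPKM on average in the NC pigs and at 2.39 FPKM in the HFCF pigs. NLRP3, an inflammasome sensor, was at 0.194 and 2.95 FPKM, and TAGAP at 0.668 and 7.57 FPKM. The distances include the difference between the groups, and the log2 fold changes of PHKA1, NLRP3 and TAGAP were 3.03, 3.34 and 3.28. The genes nearest to MITF were WWP1, CTTNBP2NL and MGAT4A (distances 0.290, 0.303 and 0.305), those nearest to TFEB were FLOT1, PSME4 and ABCF1 (0.129, 0.144 and 0.149), and those nearest to TFE3 were TRIM25, GNB2 and GNPAT (0.0522, 0.0621 and 0.0715).

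MCOLN1, the lysosomal cation channel whose calcium release promotes the nuclear entry of TFEB and which is itself a known TFEB target, fell. MCOLN1 (ENSSSCG00000013570) was at 6.37, 5.72 and 5.97 FPKM in the NC pigs and at 3.14, 2.79 and 2.96 FPKM in the HFCF pigs. The values within each group were close together and the groups lay far apart. The mean fell from 6.02 ± 0.33 to 2.96 ± 0.18 FPKM (SD, n = 3 each), a ratio of 0.492 and a log2 fold change of -0.999 (SE 0.16, adjusted p = 0.00623, limma). The call held in all 15 alternatives, with log2 fold changes from -1.45 to -0.83. Contractile smooth muscle markers were lower in the same pigs, with 4 of 6 called. They summed to 7659.5, 9261 and 12401 FPKM in the 3 HFCF pigs, lowest in the first pig, where MCOLN1 was highest. The part of these markers in this fall, and in those of the other genes given below, was not tested. In bulk tissue fewer cells of a type and less RNA per cell cannot be told apart.

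Its paralogue MCOLN3 moved the other way. MCOLN3 was at 0.029, 0.107 and 0.349 FPKM in the NC pigs and at 19.6, 7.76 and 9.75 FPKM in the HFCF pigs, a log2 fold change of 5.65 (SE 0.53, adjusted p = 0.00118, limma), which was 3.43 with 1 FPKM added and 6.60 with 0.01 FPKM added. The HFCF pigs thus held more MCOLN3 than MCOLN1 per length, and the NC pigs less. The first HFCF pig was highest for MCOLN3, as for the summed macrophage markers, whose part in this rise was not tested. MCOLN2 was at 0.0126 to 0.1001 FPKM in the NC pigs and at 0.0381 to 0.608 FPKM in the HFCF pigs. Its groups overlapped and it was not called (adjusted p = 0.301, limma). TPCN1, a channel of the same membranes, was at 7.11 and 12.7 FPKM on average (log2 fold change 0.83, adjusted p = 0.0130, limma) and lost its call after median-ratio scaling. MCOLN3 and TPCN1 were the 2 genes called among 8 tested endolysosomal channels and PIKfyve complex genes, and with median-ratio scaling 1 was called higher and 1 lower.

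SQSTM1, the p62 receptor that links ubiquitin-tagged cargo to ATG8 proteins, was the most abundant member in every pig. SQSTM1 (ENSSSCG00000014016) was at 248.4, 252.7 and 287.4 FPKM in the NC pigs and at 196.2, 204.5 and 213.8 FPKM in the HFCF pigs. Every HFCF pig was lower than every NC pig. The log2 fold change was -0.36 (SE 0.14, 95% interval -0.68 to -0.03) and was not called (adjusted p = 0.0929, limma). With median-ratio scaling, quantile values and TPM it was -0.71, -0.57 and -0.62 and was called, with adjusted p of 0.0131, 0.0310 and 0.0241 in limma. The bounds of SQSTM1 overlap those of MRNIP in the RefSeq gene table, and the use of strand in counting is not given in the sources used here.

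**Figure D3:**
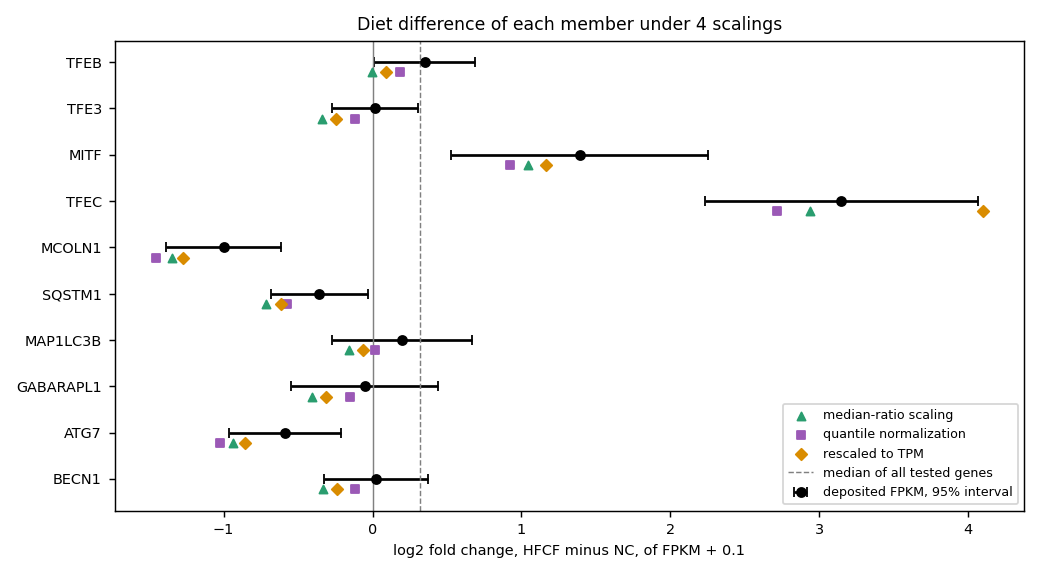
Log2 fold change of each member (HFCF minus NC, log2 of FPKM + 0.1) with deposited values (black, bars give the 95% interval) and after 3 other scalings (coloured). The dashed line is the median of all tested genes, 0.32; MITF and TFEC stay above 0 and MCOLN1, SQSTM1 and ATG7 below 0 at every scaling shown.

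MAP1LC3B and GABARAPL1, which are attached to lipid on the growing membrane, did not pass the test. MAP1LC3B (ENSSSCG00000002655) was at 14.3, 17.2 and 21.9 FPKM in the NC pigs and at 17.1, 22.1 and 21.5 FPKM in the HFCF pigs. GABARAPL1 (ENSSSCG00000000645) was at 49.0, 63.5 and 38.1 FPKM in the NC pigs and at 41.8, 47.8 and 53.0 FPKM in the HFCF pigs. Both overlapped between the groups. The 95% interval of the log2 fold change was -0.27 to 0.67 for MAP1LC3B (value 0.20, adjusted p = 0.491, limma) and -0.55 to 0.44 for GABARAPL1 (value -0.05, adjusted p = 0.869, limma). GABARAPL1 held 73.2% ± 8.39 of the sum of both genes in the NC group and 70.2% ± 1.53 in the HFCF group (SD, n = 3 each, exact permutation p = 0.5).

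Among the 3 other ATG8 genes tested, 1 was called, GABARAP, which was lower. GABARAP (ENSSSCG00000017936, named through its gene ID) was at 44.6, 40.8 and 39.6 FPKM in the NC pigs and at 5.26, 6.68 and 5.65 FPKM in the HFCF pigs. The highest HFCF pig was far below the lowest NC pig. The log2 fold change was -2.81 (SE 0.15, adjusted p = 0.000255, limma), it was called in all 15 alternatives, and no other gene overlaps it in the RefSeq table. MAP1LC3A was at 81.9, 81.8 and 61.3 FPKM in the NC pigs and at 87.2, 115.7 and 123.0 FPKM in the HFCF pigs (log2 fold change 0.53, adjusted p = 0.0793, limma), GABARAPL2 had a log2 fold change of 0.02, and MAP1LC3C was listed at 0 in all pigs.

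The sum of all 6 ATG8 genes was 193.2 ± 21.4 FPKM with normal chow and 191.0 ± 26.7 FPKM with the HFCF diet (SD, n = 3 each). Within it the share of GABARAP went from 21.7% ± 2.14 to 3.09% ± 0.36 and that of MAP1LC3A from 38.7% ± 2.64 to 56.7% ± 2.12 (SD, n = 3 each, exact permutation p = 0.1 for both). These shares over 6 genes were computed after the values of GABARAP had been seen.

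ATG7, the E1-like enzyme that activates ATG8 proteins and ATG12 for conjugation, fell. ATG7 (ENSSSCG00000011575) was at 5.34, 5.07 and 5.24 FPKM in the NC pigs and at 3.51, 3.25 and 3.56 FPKM in the HFCF pigs. The spread within each group was small beside the distance between them. The log2 fold change was -0.59 (SE 0.16, adjusted p = 0.0325, limma), a ratio of group means of 0.659, which is outside the fold limit of the study. Without any 1 of the 6 pigs the adjusted p in limma was 0.0501 to 0.0996, with log2 fold changes from -0.61 to -0.55, and after the 3 scalings the fall was larger, from -1.03 to -0.86. In the RefSeq gene table the bounds of ATG7 overlap HRH1, VGLL4 and a pseudogene.

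BECN1, the beclin subunit of the class III PI3-kinase complex that starts the membrane, was at 27.0, 26.6 and 31.3 FPKM in the NC pigs and at 25.9, 28.2 and 32.4 FPKM in the HFCF pigs (ENSSSCG00000017386). The groups overlapped throughout. The log2 fold change was 0.02, with a 95% interval from -0.32 to 0.37 (adjusted p = 0.918, limma), and it was between -0.33 and -0.12 after the 3 scalings.

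Ordered by level, SQSTM1, GABARAPL1, BECN1 and TFE3 were the first 4 members in both groups and TFEC the last. The ranges of neighbours in this order overlapped for MAP1LC3B and TFEB in both groups and for BECN1 and TFE3 in the HFCF group, and no other neighbours overlapped. MITF moved from the ninth place in the NC group, at 2.15 ± 0.81 FPKM, to the seventh in the HFCF group, at 5.83 ± 2.21 FPKM (SD, n = 3 each), past ATG7 and MCOLN1. The sum of the 10 members was 415.1 ± 18.6 FPKM with normal chow and 362.3 ± 15.2 FPKM with the HFCF diet (SD, n = 3 each), and most of it was SQSTM1.

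The other genes of the pathway were taken from 12 lists of 127 symbols, of which 118 were tested. Of these 31 were called higher and 6 lower, which is 26.3% and 5.08% beside 22.8% and 6.16% of all tested genes, shares near the background. After median-ratio scaling 20 were called higher and 16 lower, and after quantile normalization 20 and 13. All lists were written with earlier results of these data known, so their counts are not independent evidence of direction. The lists differed among themselves, and their medians and called genes follow from the regulators of the factors to their targets.

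**Figure D4:**
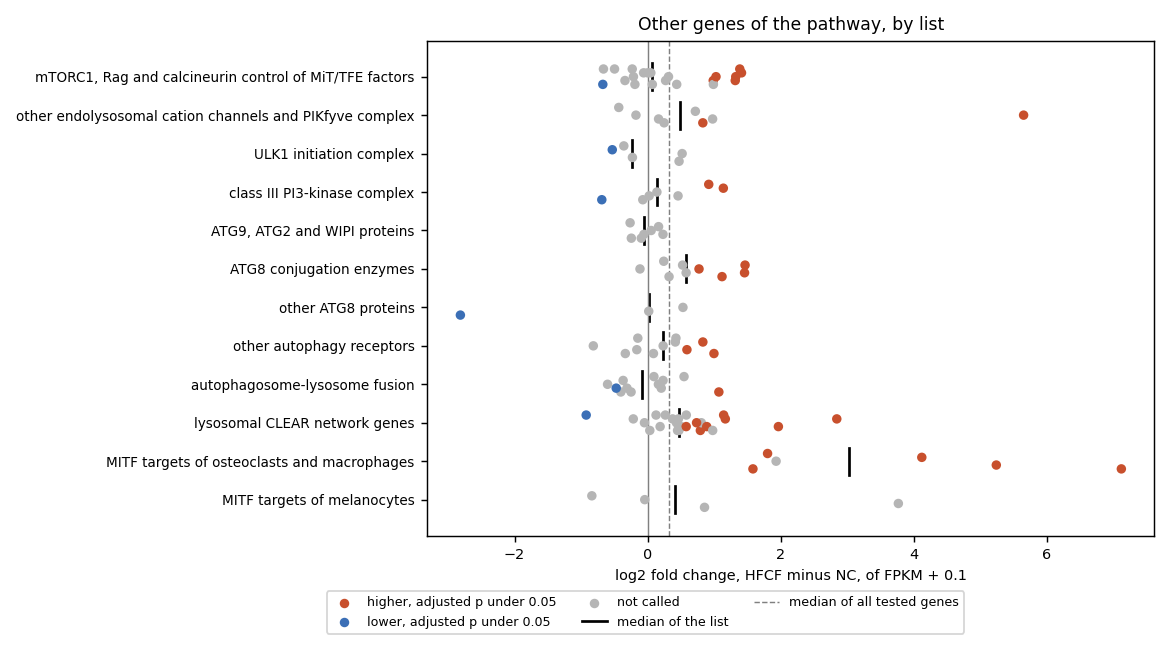
Log2 fold change (HFCF minus NC, log2 of FPKM + 0.1) of each tested gene of the 12 pathway lists, with the list median as a black bar. Red and blue points passed an adjusted p under 0.05 as higher or lower. The list of MITF targets of osteoclasts and macrophages has a median of 3.03 beside 0.32 for all tested genes (dashed line). All lists were written with earlier results of these data known.

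Among 21 tested genes of the mTORC1, Rag and calcineurin control of the factors, 6 were called higher and 1 lower, with a median log2 fold change of 0.07. This balance moved with the scaling, to 5 higher and 6 lower with median-ratio scaling, 5 and 5 with quantile values, and 6 and 3 in TPM. LAMTOR1, LAMTOR2 and LAMTOR5, subunits of the Ragulator complex that holds the Rag GTPases on the lysosome, had the largest rises, with log2 fold changes of 1.41, 1.39 and 1.33 (adjusted p = 0.00193, 0.00336 and 0.00330, limma). LAMTOR1 was at 7.36 to 9.05 FPKM in the NC pigs and at 18.9 to 23.2 FPKM in the HFCF pigs. RRAGA, the Rag GTPase that recruits mTORC1, fell from 67.4 ± 5.07 to 42.6 ± 6.87 FPKM (SD, n = 3 each, log2 fold change -0.67, adjusted p = 0.0230, limma), a call lost without the first or the third NC pig or without the variance trend (adjusted p up to 0.0793). MTOR itself was at 8.46 to 12.3 FPKM in the NC pigs and at 5.66 to 8.11 FPKM in the HFCF pigs and was not called (adjusted p = 0.0574, limma). FLCN, folliculin, which acts on the Rag proteins that recruit TFEB, had a log2 fold change of 0.07. FNIP1 and RRAGC of the same list were called higher, with log2 fold changes of 1.32 and 1.03 (adjusted p = 0.0174 and 0.00566, limma). The groups did not overlap in either of these genes.

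In the ULK1 initiation complex 1 of 5 tested genes was called, and 2 with median-ratio scaling, all lower. ULK1, the kinase that starts autophagy, fell from 20.3 ± 0.92 to 14.1 ± 1.18 FPKM (SD, n = 3 each, log2 fold change -0.53, adjusted p = 0.0266, limma), and the call was lost in 7 of 15 alternatives, with adjusted p up to 0.0862, among them without any 1 of the NC pigs and without the second or the third HFCF pig. In the class III PI3-kinase complex, where BECN1 works, AMBRA1, which binds beclin, fell from 11.2 to 6.98 FPKM on average (log2 fold change -0.69, adjusted p = 0.0203, limma), a call lost without the first or second NC pig or the second HFCF pig (adjusted p up to 0.0646). PIK3C3, the kinase itself, and PIK3R4, its regulatory subunit, rose by 1.14 and 0.92 on the log2 scale (adjusted p = 0.0425 and 0.0214, limma), and both lost the call after each of the 3 scalings (adjusted p up to 0.241 and 0.214). PIK3R4 also lost it without the first or second pig of either group, and PIK3C3 without any 1 pig other than the third of the NC group. Of 7 tested ATG9, ATG2 and WIPI genes 0 were called by limma and 0 had an unadjusted p under 0.05, and their median was -0.06.

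The genes that process and conjugate ATG8 proteins together with ATG7 had 4 of 9 tested genes called, all of them higher, with a median of 0.58. ATG3, the E2-like enzyme that takes ATG8 proteins over from ATG7, was at 6.85, 7.72 and 8.05 FPKM in the NC pigs and at 23.8, 19.9 and 19.4 FPKM in the HFCF pigs. All HFCF pigs were above all NC pigs, with a log2 fold change of 1.47 (SE 0.15, adjusted p = 0.00161, limma), and so ATG3 and ATG7 moved in opposite directions. ATG4C, a protease of ATG8 proteins, and ATG12 rose by 1.46 and 1.12 on the log2 scale (adjusted p = 0.0140 and 0.0131, limma), and ATG4C lost the call with quantile values and without the first NC pig (adjusted p up to 0.0724). ATG4C was at a mean of 0.232 FPKM in the NC pigs, and its difference was 0.55 with 1 FPKM added and 1.77 with 0.01 FPKM added.

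Of the other autophagy receptors, 3 of 11 tested genes were called, all of them higher. NCOA4, the receptor for ferritin, rose from 6.48 ± 0.96 to 13.0 ± 1.45 FPKM (SD, n = 3 each, log2 fold change 0.997, adjusted p = 0.00768, limma) and was called in all 15 alternatives. FUNDC1 and BNIP3L, receptors for mitochondria, rose by 0.83 and 0.59 on the log2 scale (adjusted p = 0.0269 and 0.0490, limma) and lost the call in 9 and 13 of 15 alternatives, among them the 3 scalings and 5 or all 6 of the fits without 1 pig (adjusted p up to 0.130 and 0.331). NBR1 and OPTN, which bind ubiquitin as SQSTM1 does, had log2 fold changes of -0.15 and -0.16 with overlapping groups. TAX1BP1, CALCOCO2 and TOLLIP of the same list had log2 fold changes of 0.42, 0.23 and 0.43 and were not called. The groups overlapped for TAX1BP1 and CALCOCO2, and for TOLLIP each HFCF pig was above each NC pig (adjusted p = 0.0549, limma). Of the 11 receptors 7 had a positive and 4 a negative difference. Of 12 tested fusion genes 1 was called higher and 1 lower, but 0 higher and 4 lower with median-ratio scaling or quantile values and 0 and 3 in TPM. TECPR1, a tethering protein of autophagosomes and lysosomes, rose by 1.07 (adjusted p = 0.0205, limma) and VPS41, a HOPS subunit, fell by 0.47 on the log2 scale (adjusted p = 0.0497, limma), calls lost in 8 and 9 of 15 alternatives, among them without the first or second pig of either group for TECPR1 and without any 1 pig other than the first of the HFCF group for VPS41 (adjusted p up to 0.130 and 0.137).

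Of the lysosomal genes of the CLEAR network, known targets of TFEB and TFE3, 8 of 25 tested were called higher and 1 lower. Of all tested genes 22.8% were called higher and 6.16% lower. The median of the list was 0.47 beside 0.32 for all tested genes. With each of the 3 scalings 5 were called higher and 1 lower. The macrophage markers also rose. They summed to 64.4 to 78.2 FPKM in the NC pigs and 906.4 to 2304 FPKM in the HFCF pigs. Their sum was highest in the first HFCF pig, as were CTSD, ATP6V1A and SGSH. GALNS, also called higher, was at 16.7, 14.5 and 19.1 FPKM in the HFCF pigs, so the third was highest. The part of the markers in the rises of the lysosomal genes was not tested. CTSD, the protease cathepsin D, was at 153.9, 142.1 and 181.3 FPKM in the NC pigs and at 2031, 1048 and 689.4 FPKM in the HFCF pigs. The groups lay far apart, with the first HFCF pig highest, and the log2 fold change was 2.84 (SE 0.37, adjusted p = 0.00312, limma). ATP6V1A, a subunit of the proton pump, rose by 1.97 and SGSH, a sulfatase, by 1.17 on the log2 scale (adjusted p = 0.00592 and 0.00633, limma). TPP1, a lysosomal peptidase, fell from 71.9 ± 12.6 to 38.0 ± 7.83 FPKM (SD, n = 3 each, log2 fold change -0.92, adjusted p = 0.0173, limma), a call lost without the second NC pig (adjusted p = 0.0525). LAMP1, a main lysosomal membrane protein, had a log2 fold change of -0.22 with overlap.

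The targets of MITF and its relatives in osteoclasts and macrophages had 5 of 6 tested genes called, all higher, with a median of 3.03 beside 0.32 for all tested genes. Like the other lists, this list was written with earlier results of these data known, so its count is not independent evidence of direction. GPNMB, a glycoprotein of lipid-laden macrophages, was at 3.37, 5.80 and 6.03 FPKM in the NC pigs and at 155.5, 89.4 and 47.5 FPKM in the HFCF pigs, with the first pig of the HFCF group highest, as for MITF (log2 fold change 4.12, adjusted p = 0.00171, limma). OSTM1, a lysosomal membrane protein of osteoclasts, rose from 3.48 ± 0.63 to 10.7 ± 2.20 FPKM (SD, n = 3 each, log2 fold change 1.58, adjusted p = 0.00360, limma). ACP5, an acid phosphatase, ATP6V0D2, a proton pump subunit, and OSCAR, a receptor, rose by 7.12, 5.24 and 1.80 on the log2 scale (adjusted p = 0.00129, 0.00250 and 0.0133, limma), sizes that depend on the pseudocount because the NC pigs held little of each. OSCAR had a mean of 0.047 FPKM in the NC pigs and passed the filter of 0.1 FPKM only through the HFCF pigs. The macrophage markers rose in the same pigs, and their part in these rises was not tested.

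Of the MITF targets of melanocytes, 0 of 4 tested were called by limma and 1 had an unadjusted p under 0.05. TYR, PMEL and DCT were between 0.0240 and 0.352 FPKM in each pig. MLANA was at 2.59, 8.03 and 0.131 FPKM in the HFCF pigs and at 0, 0 and 0.0995 FPKM in the NC pigs, and was not called (adjusted p = 0.0535, limma).

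**Figure D5:**
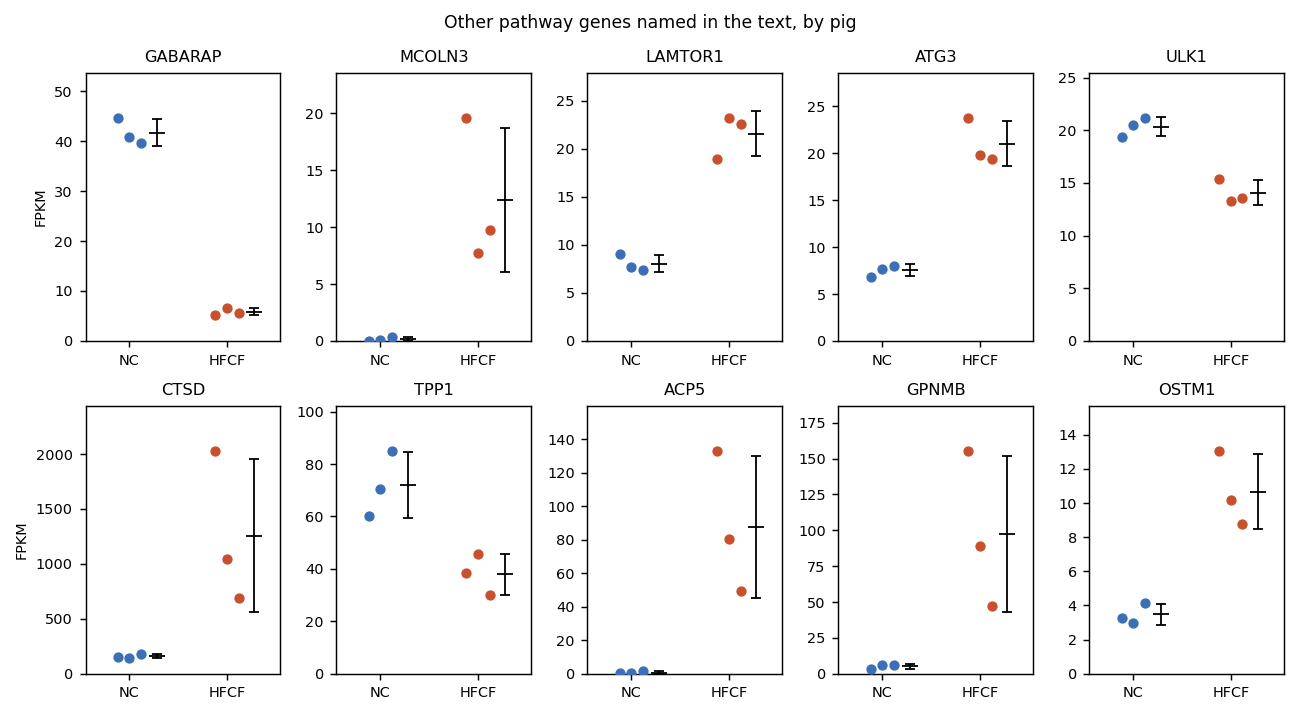
FPKM of 10 other pathway genes named in the text in each pig (points; NC blue, HFCF red), with the mean and SD of 3 pigs as black bars on linear axes that start at 0. GABARAP, ULK1 and TPP1 lie lower and the other 7 genes higher in the 3 HFCF pigs than in all NC pigs.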

How the data were processed

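According to the methods, the authors cleaned paired-end reads (cutadapt 1.9 in the processing notes), aligned them to the pig genome with HISAT2 and quantified them with StringTie, and deposited FPKM values per gene and pig. The build named in the methods differs from that of the gene table used for names, so no coordinates are given. Values at or below 0.0001 FPKM were read as 0. Of 13993 rows without a symbol, 771 were named through a table of gene IDs. No read counts were used, so precision rests on the spread among the 3 pigs of each group. In limma that spread is moderated towards the spread of genes of similar level. The limma p-values weigh the group difference against this moderated spread.

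Values were fitted as log2(FPKM + 0.1) with limma 3.58.1 in R 4.3.3 (1 factor, diet, and a trended eBayes prior), over 15384 genes. The fit was also run on simulated data in which 200 genes changed by 2 on the log2 scale. It called 121 of these genes and 5 unchanged genes, and 0 genes when no effect was simulated. A gene that was not called may therefore still differ. Shares were compared by exact two-sided permutation over pigs. Members and lists were chosen with earlier results of these data known. Named were all members, from each list all called genes (up to 8 tested genes) or the 3 largest called changes each way, and for each factor the 3 genes nearest in centred log2 values among those with a symbol and a mean of 1 FPKM or more. MTOR, FLCN, MCOLN2, LAMP1, the ATG8 genes and the melanocyte genes that were not called were named after their values were seen. So were the receptors NBR1, OPTN, TAX1BP1, CALCOCO2 and TOLLIP. FNIP1, RRAGC, LAMP2 and GALNS, which were called, were also named in this way. Cell type marker lists beyond those in the results gave 2 of 6 T cell, 1 of 5 B and plasma cell and 1 of 5 fibroblast genes called higher, and 0 of 5 endothelial, 0 of 4 adipocyte and 0 of 3 skeletal muscle genes called (unadjusted p under 0.05 in 2, 0 and 1). Alternatives were other pseudocounts, filters and scalings, no variance trend, a block by replicate number and each library left out.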

Additional observations from a re-analysis of the deposited data

How the results depend on the processing

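TFEC (where tested) and MCOLN1 were called in all alternatives; TFEC could not be tested with a mean of at least 1 FPKM, which it does not reach. Leaving out 1 pig at a time gave between 2 and 3 members called, between 24 and 35 pathway list genes, and between 2 and 7 of those lower in the HFCF group; 2 members were called without the first or second pig of either group. For MITF the log2 fold change then lay between 1.12 and 1.66, for ATG7 between -0.61 and -0.55, for TFE3 between -0.019 and 0.041, for GABARAPL1 between -0.24 and 0.13 and for BECN1 between -0.063 and 0.099. By the fold rule of the study with the unadjusted p of limma, added after the data were seen, 3 members were called.

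Replicate numbers did not pair the pigs (correlations of deviations 0.021, -0.079 and -0.072 for equal numbers, across genes). With the replicate block the calls were 2 members and 23 pathway list genes, 1 of them lower, and MITF (1.39) and ATG7 (-0.59) lost their calls. So did other list genes, among them RRAGA (adjusted p = 0.0629, limma), AMBRA1 (0.0621), ATG4C (0.0549) and TPP1 (0.0527). After median-ratio scaling TFEB was -0.0061, TFE3 -0.34, MAP1LC3B -0.16, BECN1 -0.33, MITF 1.05 and SQSTM1 -0.71, after quantile normalization TFE3 -0.12, BECN1 -0.12, MITF 0.92 and SQSTM1 -0.57, and after rescaling to TPM TFE3 -0.24, MAP1LC3B -0.063, BECN1 -0.24, MITF 1.17 and SQSTM1 -0.62. These scalings gave 20, 20 and 23 pathway list genes higher and 16, 13 and 10 lower, and no variance trend gave 3 lower. The cause of these changes was not tested, apart from the shift of the median of all genes given with the first results. The depth in reads is not known, so no interval for counting error is given, and levels as low as that of TFEC in the NC pigs cannot be told from 0.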
